A study of Homo sapiens with 4 samples.

Results

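The SLC25 carriers are a family of membrane proteins, most of them in the inner mitochondrial membrane, that move nucleotides, amino acids, phosphate, cofactors, carboxylates, iron and acylcarnitines between cytosol and mitochondrial matrix. Their RNA was examined in J.gamma1 cells. This human leukaemia line was derived from Jurkat, itself a T-cell acute lymphoblastic leukaemia, and is known for lacking the signalling enzyme PLCG1. Members were all genes of the deposited count table that GENCODE release 29 lists as protein coding under a symbol of the form SLC25A plus a number, which gave 48 of the 64252 listed genes. The FB23-2 group held cells cultured for 48 h with 10 µM FB23-2, an inhibitor of the RNA N6-methyladenosine demethylase FTO, and the control group held cells given the DMSO vehicle at under 0.1%. Each group had 2 libraries from separate biological samples of this single line, so that n = 2 in each group throughout. The question put to the family was which carriers differ in RNA level between FB23-2 and control cells.

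Because the inner membrane is impermeable to most charged metabolites, each carrier is a control point between a cytosolic pathway and a mitochondrial one. The ADP/ATP carriers and the phosphate carrier feed ATP synthase. The aspartate/glutamate, oxoglutarate and citrate carriers link redox balance, amino acid and lipid synthesis to the matrix. The carriers of iron, folate and S-adenosylmethionine supply iron-sulphur cluster and haem synthesis, one-carbon metabolism and mitochondrial methylation. Carriers are made in the cytosol and inserted by a dedicated import route, which ends at the TIM22 complex.

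The libraries held 37804516 and 33983246 counts with FB23-2 and 24615359 and 34897961 counts in control, so that 3 counts corresponded to 0.0785 to 0.125 CPM (counts scaled to library size, with TMM factors). Replicates differed far less than groups did: chi-square over its degrees of freedom was 6.69 for the FB23-2 pair, 7.48 for the control pair and 74.6 to 82.3 for pairs across groups. All 11 T-lineage markers examined were detected, and their summed level was 1541 to 1613 CPM with FB23-2 and 2063 to 2088 CPM in control. Of them 8 fell, where 20.3% of all tested genes and 23.4% of protein-coding ones were called lower. The part of this fall in the carriers' results was not tested. Summed myeloid markers stood at 1.82 to 2.43 CPM with FB23-2 and 1.71 to 2.49 CPM in control. Summed B-lineage markers stood at 46.1 to 47.8 CPM with FB23-2 and 42.1 to 48.3 CPM in control, nearly all of it CD79A, and summed natural killer markers at 6.39 to 6.75 CPM with FB23-2 and 4.03 to 4.53 CPM in control. PLCG1 RNA itself was present, averaging 293 CPM with FB23-2, against 265 CPM in control, and RNA counts do not show whether the protein is made. In bulk RNA, fewer cells of a type and less RNA per cell cannot be told apart.

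The carriers moved in both directions and by modest amounts. Of 48 members, 41 passed the filter on low counts and were tested. Of these, 10 rose and 13 fell (edgeR quasi-likelihood test, Benjamini-Hochberg adjusted p under 0.05 over all genes). That is 56.1% called, beside 42.1% of all 18817 tested genes and 50.9% of the 13451 protein-coding genes among them. By direction, 24.4% of the tested members were higher and 31.7% lower, beside 21.8% and 20.3% of all tested genes and 27.5% and 23.4% of protein-coding ones. The median log2 fold change (FB23-2 over control) was -0.07 for the members and 0.00 for all tested genes. At a log2 fold change of at least 0.5 in size, 3 members were higher and 3 lower, beside 9.62% and 11.3% of all tested genes. No member passed a test against a fold of 1.5 (edgeR glmTreat, 0 of 41, with 2 members, SLC25A22 and SLC25A26, at an unadjusted p under 0.05). No other tool was run against that fold. The CPM values of the groups did not overlap for 15 members that were higher and 20 that were lower, beside 36.3% and 34.5% of all tested genes. The summed level of all members was 2649 and 2613 CPM in the FB23-2 libraries, against 2728 and 2773 CPM in the control libraries. The FB23-2 libraries lay below both controls in this sum. SLC25A3 alone, at 332 and 317 CPM with FB23-2 against 454 and 453 CPM in control, differed by about as much. The sum therefore does not show a fall across the family. The number of members called higher was 5 to 7 with any 1 library left out (5 without replicate 1 of either group, 7 without FB23-2 replicate 2 and 6 without control replicate 2). The number called lower was 8 without control replicate 2 and 9 to 12 without any other library.

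**Figure D1:**
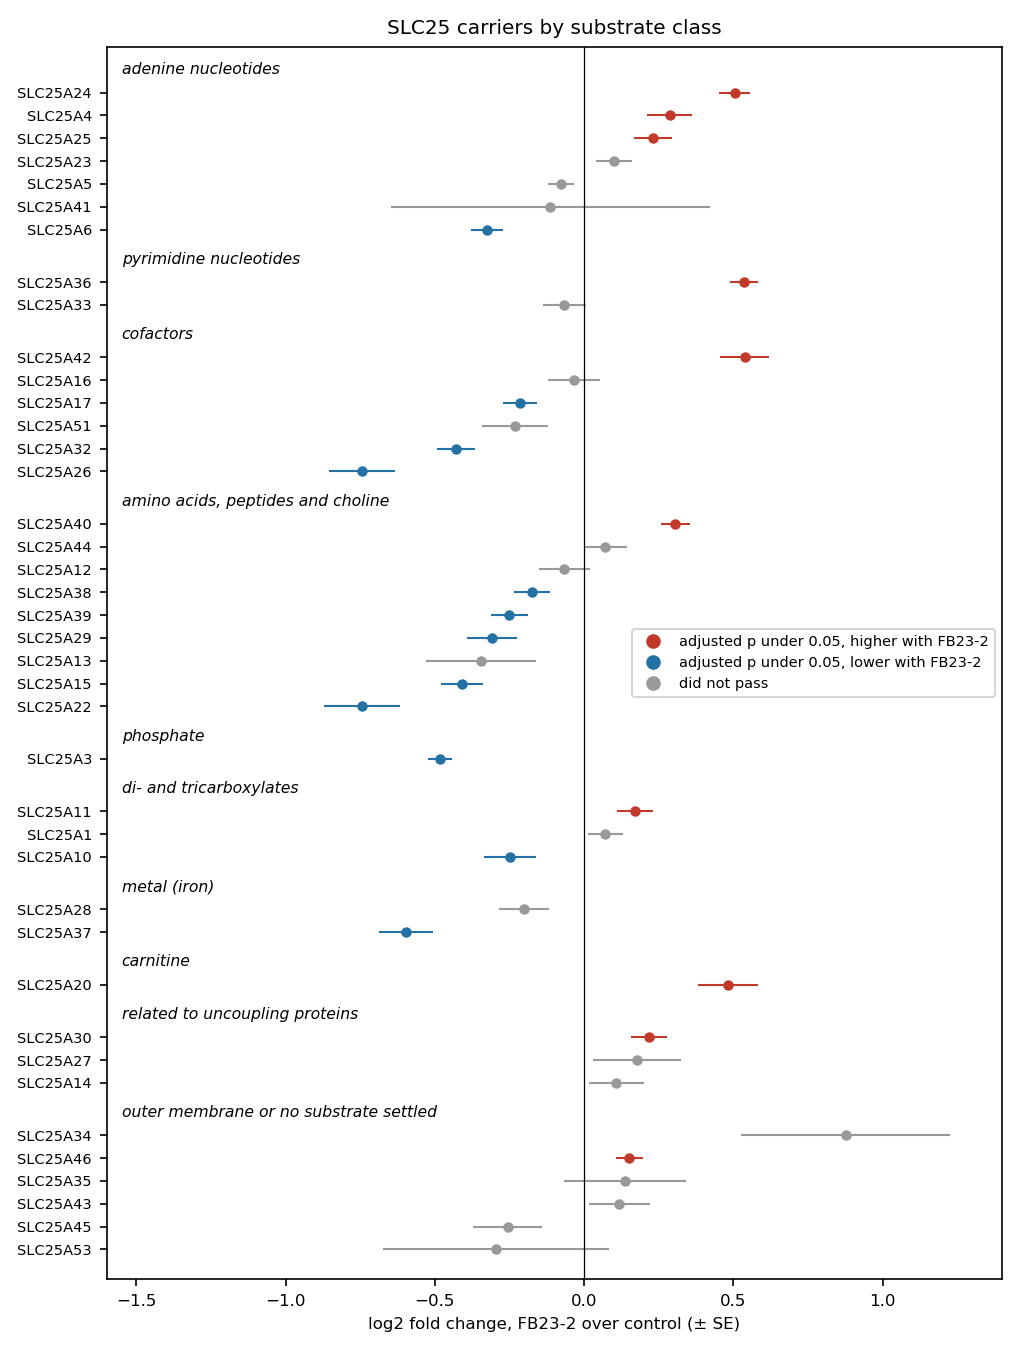
Log2 fold change of 40 tested SLC25 members (FB23-2 over control, x axis, points with SE bars) grouped by the substrate carried. Red points (10) were higher and blue points (12) lower at an adjusted p under 0.05, and grey points (18) did not pass. The called members lie between -0.75 and 0.54.

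Of the 23 called members, 11 kept their call under each of 11 alternatives (other scalings, filters, DESeq2, a replicate block and leaving out each library; the test against 1.5-fold is not among them). They were SLC25A24, SLC25A36, SLC25A40 and SLC25A42, which were higher, and SLC25A3, SLC25A6, SLC25A15, SLC25A22, SLC25A26, SLC25A32 and SLC25A37, which were lower. The other 12 lost it under at least 1 of them, as given beside each gene described.

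**Figure D2:**
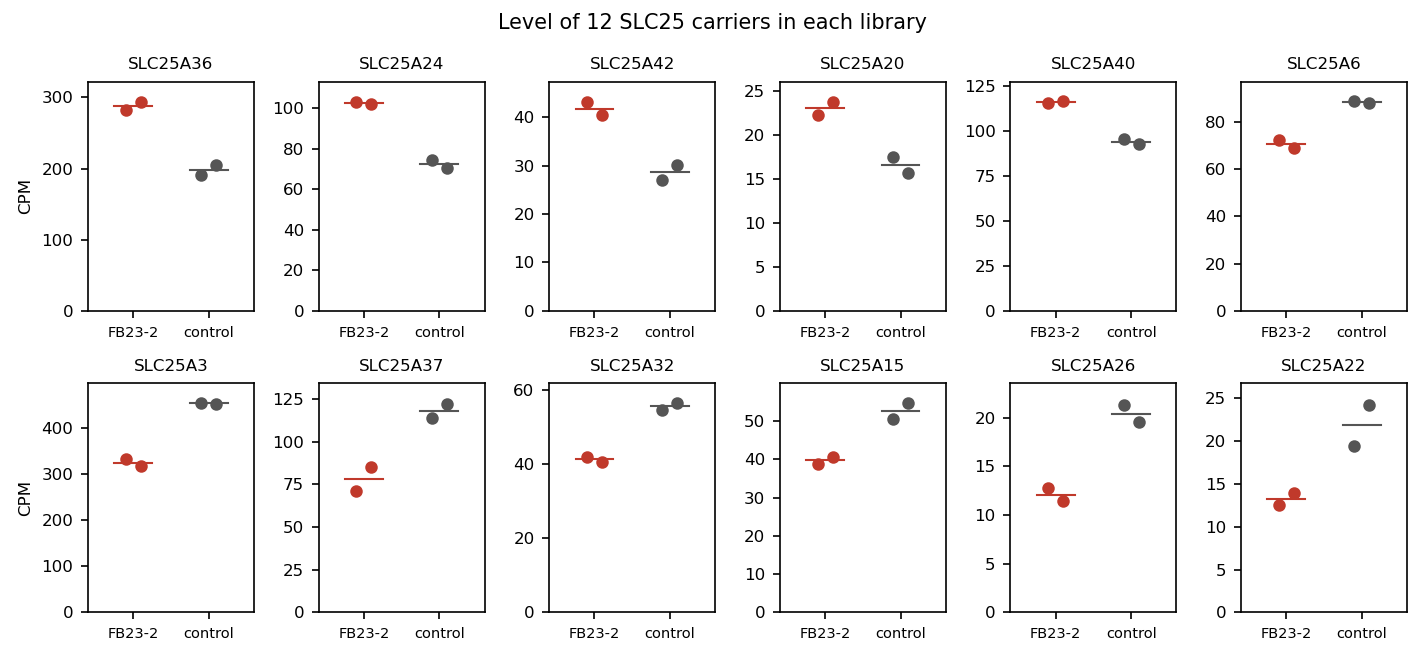
CPM (y axis, from 0) of 12 carriers in each library, as points with the group mean as a line, FB23-2 left and control right. Shown are the 11 members whose call held under those 11 alternatives and the carnitine carrier gene SLC25A20. In all 12 panels the libraries of the groups do not overlap, which the choice of genes called in these same libraries largely fixed beforehand.

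The promoter sequences below are shown because they place the same short motif in carriers that moved in opposite directions. The E-box CACGTG is bound by MYC and by other factors of its class. RefSeq promoter windows (GRCh38.p14, 250 bases before to 50 after a start) were found for 40 members, 34 of them tested, as 50 windows. An E-box, whose letters are the same on both strands, was in 18.6% of the windows of tested members, beside 9.29% of the windows of all tested genes and 7.25% of all promoter windows. The 8 tested members with it were 3 that fell (SLC25A22, SLC25A26 and SLC25A38), 2 that rose (SLC25A36 and SLC25A46) and 3 that did not pass (SLC25A13, SLC25A33 and SLC25A51). The calls of SLC25A38 and SLC25A46 were each lost under 7 of 11 alternatives. SLC25A22 and SLC25A26 have several windows, not all of which hold an E-box, and which start these cells use was not tested. Stretches around the E-boxes (capitals) of the 5 called members follow, in the direction of transcription.
SLC25A26 (chr3:66220911-66221002, plus strand): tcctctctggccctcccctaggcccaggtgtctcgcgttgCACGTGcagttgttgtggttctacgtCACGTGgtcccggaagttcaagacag
SLC25A22 (chr11:795428-795475, minus strand): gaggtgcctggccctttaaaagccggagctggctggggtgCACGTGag
SLC25A38 (chr3:39383286-39383351, plus strand): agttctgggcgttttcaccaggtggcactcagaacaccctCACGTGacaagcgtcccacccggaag
SLC25A36 (chr3:140941653-140941718, plus strand): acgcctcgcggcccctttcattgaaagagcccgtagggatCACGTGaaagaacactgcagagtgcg
SLC25A46 (chr5:110738920-110738985, plus strand): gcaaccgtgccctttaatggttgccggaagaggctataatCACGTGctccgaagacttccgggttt
Across all genes, 7.45% of the windows of genes called higher and 13.1% of those of genes called lower held an E-box, against 2 of 12 windows of members called higher and 3 of 15 windows of members called lower. Of 3 other motifs searched on both strands, which do not overlap the E-boxes shown, the GABP site CCGGAAGTG was in the windows of SLC25A17, which fell, and SLC25A24, which rose, and in 4% of the windows of all tested genes. The amino acid response element TGATGNAA was in that of SLC25A11 and in 2.08% of the windows of all tested genes. The exact consensus NRF1 site was in no window of a member and in 1.95% of those of all tested genes. These matches are descriptions of letters and do not show binding.

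The ADP/ATP carriers, which export ATP from the matrix in exchange for cytosolic ADP, did not move together. SLC25A5, the isoform of dividing cells (chromosome X, 119468400 to 119471319, hg38), stood at 351 and 328 CPM with FB23-2 and at 361 and 356 CPM in control. Its FB23-2 values were the lower ones, but its log2 fold change of -0.08 ± 0.04 (SE) did not pass (edgeR adjusted p = 0.19, or 0.0388 without FB23-2 replicate 1). SLC25A6, which lies in the region shared by chromosomes X and Y (1386152 to 1392724), fell to 70.5 ± 2.38 CPM with FB23-2, against 88.4 ± 0.539 CPM in control (SD, n = 2 each). This was a log2 fold change of -0.32 ± 0.05 (edgeR adjusted p = 0.00102). SLC25A4, the isoform best known from heart and muscle, rose to 35.2 ± 0.0616 CPM, against 28.8 ± 1.18 CPM in control (0.29 ± 0.08, edgeR adjusted p = 0.0136), but did not pass without FB23-2 replicate 1 (0.0662) or control replicate 1 (0.102). The testis isoform gene SLC25A31 had 0 counts in all 4 libraries, which allows at most 3 counts in each. Per kb of exon, SLC25A5 was the most abundant family member, at 226 CPM per kb with FB23-2 and 239 CPM per kb in control. The margin depends on the exon lengths used, 1.5 kb for SLC25A5 and 8.896 kb for SLC25A3. In CPM, SLC25A3 averaged 324 with FB23-2 and 453 in control, against 339.5 and 358 for SLC25A5. The ADP/ATP carrier genes have near-identical pseudogene copies. The 9 listed copies of SLC25A5 held 0 and 3 counts with FB23-2 and 0 and 1 in control, and the 6 of SLC25A6 held 0 and 0 with FB23-2 and 0 and 5 in control. How multiply aligned reads were handled is not given in the sources used here.

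The ATP-Mg/phosphate carriers change the total adenine nucleotide content of the matrix in response to calcium. SLC25A24 (chromosome 1, 108134036 to 108200849) stood at 103 and 102 CPM with FB23-2 and at 74.3 and 70.6 CPM in control. Both FB23-2 libraries lay above both controls, a log2 fold change of 0.50 ± 0.05 (edgeR adjusted p = 6.55e-05). SLC25A25 rose to 49.4 ± 0.174 CPM, against 42.2 ± 1.06 CPM in control (0.23 ± 0.06, edgeR adjusted p = 0.0166), but did not pass with any 1 library left out (0.0591 to 0.116). Its antisense gene SLC25A25-AS1 covers 13.5% of its exon bases and fell (-1.27). SLC25A23 (0.10 ± 0.06) and the barely detected SLC25A41 (0.514 CPM with FB23-2 and 0.598 CPM in control) did not pass. SLC25A23 and SLC25A41 are neighbours on chromosome 19, 2.3 kb apart. The pyrimidine nucleotide carriers supply UTP, CTP and related nucleotides for mitochondrial RNA and DNA. SLC25A36 (chromosome 3, 140941830 to 140980961) stood at 282 and 294 CPM with FB23-2 and at 192 and 205 CPM in control. It rose by 0.54 ± 0.05 on the log2 scale (edgeR adjusted p = 2.17e-05), with no overlap between groups. SLC25A33, its paralog, did not pass (-0.07 ± 0.07, adjusted p = 0.503).

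Of 7 tested cofactor carriers, 4 fell and 1 rose, beside 20.3% of all tested genes lower and 21.8% higher. With so few genes these counts only describe the class. SLC25A26 (chromosome 3, 66133610 to 66388116), which imports the methyl donor S-adenosylmethionine, stood at 12.8 and 11.4 CPM with FB23-2 and at 21.3 and 19.5 CPM in control. Both FB23-2 values were lower, by -0.74 ± 0.11 on the log2 scale (edgeR adjusted p = 0.00059). It shares 15.5% of its exon bases with LRIG1 on the opposite strand, which rose by 1.28, and the strand setting of the counts is not stated. SLC25A32 (chromosome 8, 103398635 to 103415189), the carrier for folate and for flavin adenine dinucleotide, fell to 41.3 ± 0.924 CPM with FB23-2, against 55.6 ± 1.26 CPM in control (-0.43 ± 0.06, edgeR adjusted p = 0.000548). It shares 11.1% of its exon bases with DCAF13 on the opposite strand, which fell (-0.39). GENCODE also lists a same-strand gene over 69.7% of its exon bases. That gene is not among those in the deposited counts, so reads from it cannot be told apart and the level of SLC25A32 is uncertain. SLC25A17, a peroxisomal carrier of adenine nucleotide cofactors and the class member highest per kb, stood at 53.7 and 53.6 CPM with FB23-2 and at 62.1 and 62.3 CPM in control. Its groups did not overlap and it fell (-0.21 ± 0.06, edgeR adjusted p = 0.0141), but not without FB23-2 replicate 2 (0.0549) or control replicate 2 (0.0851), nor by DESeq2 (0.0674).

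SLC25A42 (chromosome 19, 19063999 to 19112888), which brings coenzyme A into the matrix, was the cofactor carrier that rose. It stood at 43.0 and 40.4 CPM with FB23-2 and at 27.0 and 30.2 CPM in control, a log2 fold change of 0.54 ± 0.08 (edgeR adjusted p = 0.00068), with no overlap. SLC25A16 (-0.03 ± 0.09) and the NAD carrier gene SLC25A51 (-0.23 ± 0.11) did not pass, and SLC25A52, the other NAD carrier gene, had 0 and 0 counts with FB23-2 and 1 and 4 in control.

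Of 9 tested carriers of amino acids and related solutes, 5 fell and 1 rose, where 20.3% of all tested genes were lower and 21.8% higher. The number lower was 3 without either FB23-2 library, 4 without control replicate 1 and 2 without control replicate 2. SLC25A22 (chromosome 11, 790475 to 798333), a glutamate importer, stood at 12.5 and 13.9 CPM with FB23-2 and at 19.4 and 24.2 CPM in control. The groups did not overlap, and the log2 fold change of -0.75 ± 0.13 (edgeR adjusted p = 0.00129) was close to that of SLC25A26. SLC25A15 (chromosome 13, 40789412 to 40810111), which exchanges ornithine for citrulline, fell to 39.7 ± 1.28 CPM, against 52.6 ± 3.04 CPM in control (-0.41 ± 0.07, edgeR adjusted p = 0.00132). SLC25A29, a carrier of basic amino acids, fell to 96.6 ± 10.7 CPM, against 119 ± 8.08 CPM in control (-0.31 ± 0.08, edgeR adjusted p = 0.023), but did not pass without FB23-2 replicate 1 (0.0505), without control replicate 2 (0.122) or with library size scaling (0.0613). SLC25A38, the glycine carrier that haem synthesis depends on, fell to 66.6 ± 1.86 CPM, against 75.4 ± 4.01 CPM in control (-0.17 ± 0.06, edgeR adjusted p = 0.0417). It did not pass with any 1 library left out (0.0552 to 0.194), nor under 3 other alternatives (0.104 to 0.126). The aspartate/glutamate carriers of the malate-aspartate shuttle did not pass, with log2 fold changes of -0.07 ± 0.08 for SLC25A12 and -0.35 ± 0.18 for SLC25A13. Neither did the branched-chain amino acid carrier gene SLC25A44 (0.07 ± 0.07).

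The glutathione carriers SLC25A39 and SLC25A40 moved in opposite directions. SLC25A40 (chromosome 7, 87833568 to 87876357) rose to 116 ± 0.803 CPM with FB23-2, against 93.9 ± 1.75 CPM in control (0.31 ± 0.05, edgeR adjusted p = 0.000733). SLC25A39 stood at 117 and 104 CPM with FB23-2 and at 129 and 134 CPM in control, and fell (-0.25 ± 0.06, edgeR adjusted p = 0.00924), but not without FB23-2 replicate 2 (0.0587), without control replicate 2 (0.0923) or with no filter (0.057). Their sum per kb of exon was 55.9 and 52.3 CPM per kb with FB23-2 and 55.3 and 56.1 CPM per kb in control, so that the groups overlapped in the sum. SLC25A2, SLC25A18 and SLC25A48 were not tested. SLC25A18, the other glutamate carrier gene, had 8 and 15 counts with FB23-2 and 2 and 5 in control, SLC25A2 had 4 counts in 1 FB23-2 library alone, and the choline carrier gene SLC25A48 had 0 counts in all libraries.

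The phosphate carrier gene SLC25A3 (chromosome 12, 98593591 to 98606379), whose product also brings copper into the matrix, stood at 332 and 317 CPM with FB23-2 and at 454 and 453 CPM in control. The FB23-2 libraries were both lower, by -0.48 ± 0.04 on the log2 scale (edgeR adjusted p = 1.49e-05), the lowest adjusted p of the family. Per kb of exon SLC25A3 stood at 36.5 CPM per kb with FB23-2 and 51.0 CPM per kb in control.

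Both mitoferrins, the iron importers, had both FB23-2 values below both controls, as 34.5% of all tested genes did. Mitoferrin 1, SLC25A37 (chromosome 8, 23528805 to 23575463), stood at 70.9 and 85.5 CPM with FB23-2 and at 114 and 122 CPM in control, without overlap, and fell (-0.60 ± 0.09, edgeR adjusted p = 0.0021). Mitoferrin 2, SLC25A28, stood at 27.2 and 30.5 CPM with FB23-2 and at 32.6 and 33.5 CPM in control, and did not pass (-0.20 ± 0.08, edgeR adjusted p = 0.0859). Upper quartile scaling alone gave a p under the threshold (0.0458). In CPM, SLC25A37 was the more abundant, averaging 78.2 with FB23-2 and 118 in control, against 28.8 and 33.05 for SLC25A28. Per kb of exon the order was the reverse. SLC25A28 stood at 16.4 CPM per kb with FB23-2 and 18.8 CPM per kb in control, where SLC25A37 had 9.59 and 14.5 CPM per kb. That order rests on the exon lengths used, 1.755 kb for SLC25A28 and 8.147 kb for SLC25A37.

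The carnitine carrier gene SLC25A20 (chromosome 3, 48856931 to 48898993), which brings acylcarnitines in for fatty acid oxidation, stood at 22.3 and 23.7 CPM with FB23-2 and at 17.5 and 15.7 CPM in control. It rose without overlap (0.48 ± 0.10, edgeR adjusted p = 0.00397), but narrowly missed the threshold without control replicate 2 (0.055). Of the carboxylate carriers, the citrate carrier gene SLC25A1 stood at 82.6 and 77.7 CPM with FB23-2 and at 74.3 and 78.0 CPM in control, and these overlapping values did not pass (0.07 ± 0.06). SLC25A11, the oxoglutarate/malate carrier of the malate-aspartate shuttle, averaged 94.1 ± 6.46 CPM with FB23-2 and 83.7 ± 0.488 CPM in control. It passed narrowly as higher (0.17 ± 0.06, edgeR adjusted p = 0.0453), but not under 8 of the 11 alternatives (0.0568 to 0.377), among them leaving out FB23-2 replicate 1 (0.377) or either control library (0.182 and 0.185). SLC25A11 shares 9.14% of its exon bases with RNF167 on the opposite strand, which was also called higher (0.17), and the strand setting is not stated. The dicarboxylate carrier gene SLC25A10 averaged 37.5 ± 4.13 CPM with FB23-2 and 44.4 ± 2.32 CPM in control. It passed narrowly as lower (-0.25 ± 0.09, edgeR adjusted p = 0.0473), but not under 6 alternatives (0.0668 to 0.288), among them leaving out FB23-2 replicate 2 (0.265) or either control library (0.0668 and 0.288). A read-through gene covering 46.6% of its exon bases had 0 counts in all libraries. The oxodicarboxylate carrier gene SLC25A21 had 0 and 1 counts with FB23-2 and 0 and 7 in control.

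All 3 carriers related to the uncoupling proteins had both FB23-2 values above both controls, as 36.3% of all tested genes did, and 1 passed. With 3 genes this only describes the class. SLC25A30 stood at 55.4 and 55.9 CPM with FB23-2 and at 48.3 and 47.6 CPM in control (0.22 ± 0.06, edgeR adjusted p = 0.0172), but did not pass with any 1 library left out (0.0617 to 0.102). SLC25A14 (0.11 ± 0.09) and SLC25A27 (0.18 ± 0.15) did not pass. Among members with no settled substrate or of the outer membrane, SLC25A46, an outer membrane protein tied to mitochondrial shape, stood at 115.1 and 114.5 CPM with FB23-2 and at 103 and 104 CPM in control. It passed as higher (0.15 ± 0.05, edgeR adjusted p = 0.0254), but not with any 1 library left out (0.0653 to 0.172), nor under 3 other alternatives (0.0558 to 0.0855). SLC25A34 had the highest log2 fold change of the tested members, 0.88 ± 0.35, at only 1.64 ± 0.326 CPM with FB23-2 and 0.874 ± 0.12 CPM in control, and did not pass (adjusted p = 0.0737). SLC25A35 (0.14 ± 0.20) passed only without control replicate 2 (0.0318) and shares 33.2% of its exon bases with RANGRF on the opposite strand, which fell (-0.51). SLC25A43 (0.12 ± 0.10), SLC25A45 (-0.26 ± 0.12) and SLC25A53 (-0.30 ± 0.38) did not pass either, and SLC25A47, a liver gene, had 0 counts in all libraries.

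Where several carriers move the same substrate, their shares of the set restate the fold changes above in another form. The size of each share also depends on the exon lengths used. SLC25A36 made up 74.2% and 75.6% of the pyrimidine nucleotide carriers per kb of exon with FB23-2, against 66.2% and 66.5% in control. SLC25A40 made up 40.6% and 43.9% of the glutathione carriers with FB23-2, against 33.8% and 32.5% in control. SLC25A37 made up 36.0% and 37.7% of the mitoferrins with FB23-2, against 43.0% and 43.9% in control. Among ATP-Mg/phosphate carriers SLC25A24 held 40.5% and 40.4% with FB23-2, against 35.7% and 34.0% in control. The ADP/ATP set kept SLC25A5 as its main member, at 85.2% and 84.8% with FB23-2 and 83.7% and 83.5% in control, while SLC25A6 held 12.1% and 12.4% with FB23-2, against 14.3% and 14.3% in control. SLC25A12 made up 81.7% and 82.2% of the aspartate/glutamate carriers with FB23-2, against 79.0% and 78.8% in control. Neither SLC25A12 nor SLC25A13 passed on its own. In each of the shares given here the libraries of the groups did not overlap. Among all tested genes, CPM values did not overlap for 36.3% (FB23-2 above) and 34.5% (FB23-2 below). An exact permutation test of 2 against 2 libraries cannot go below p = 0.333 (two-sided), so the shares are descriptions.

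**Figure D3:**
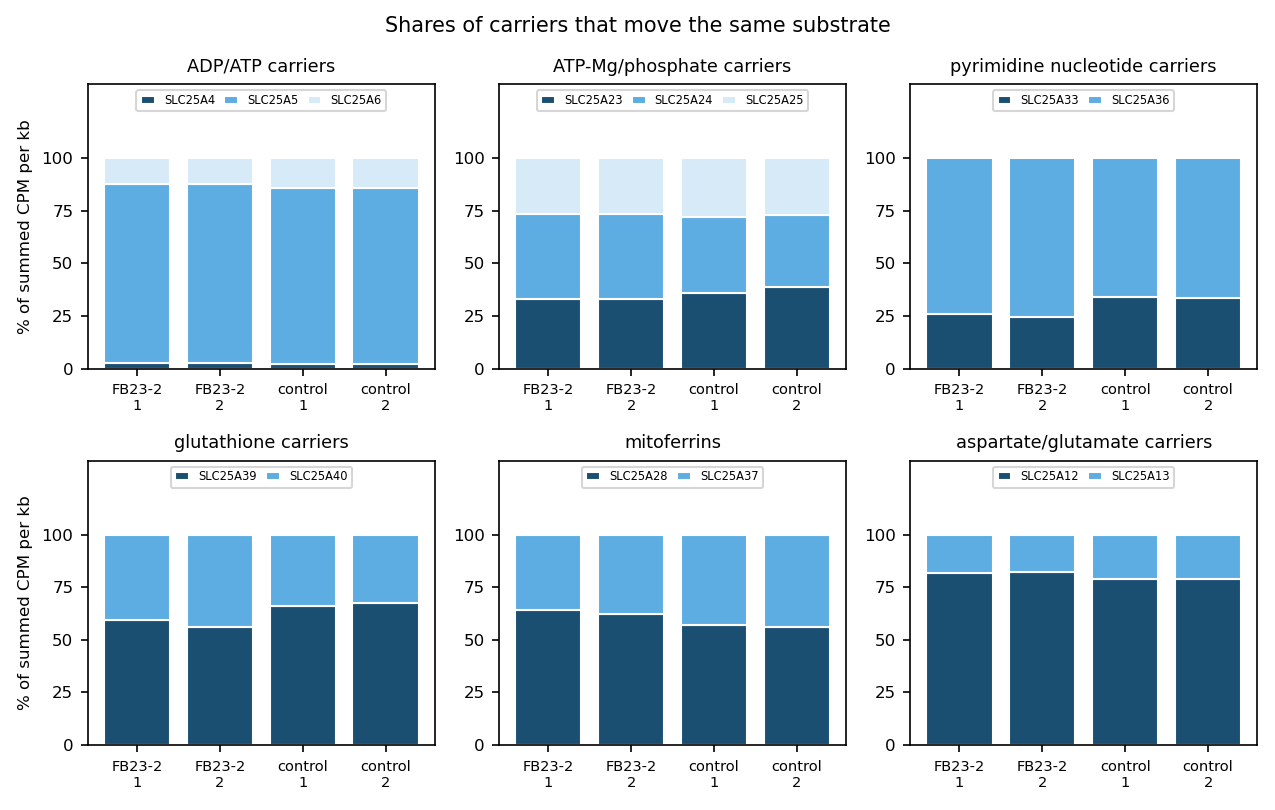
Share of each carrier (stacked bars, percent of the summed CPM per kb of exon) in 6 sets that move the same substrate, in the 2 FB23-2 libraries (left) and the 2 control libraries (right). SLC25A36 holds 74.2% and 75.6% of the pyrimidine nucleotide set with FB23-2, against 66.2% and 66.5% in control.

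The import route of carriers, from outer membrane entry to inner membrane insertion, had 10 of 13 genes lower and 1 higher. That stood beside 20.3% of all tested genes lower and 21.8% higher (23.4% and 27.5% of protein-coding ones). The median log2 fold change of the 13 genes was -0.50, beside 0.00 for all tested genes. Those that fell were TIMM13 (-1.04 ± 0.06), a small chaperone of the intermembrane space, and TOMM40 (-0.86 ± 0.06) and TOMM22 (-0.73 ± 0.06) of the outer membrane pore. TOMM20, TOMM70, TIMM8A, TIMM8B, TIMM9, TIMM10 and TIMM10B fell too. TIMM8B shares 30.1% of its exon bases with NKAPD1 on the opposite strand, which fell (-0.21). TIMM22, the insertion channel (-0.10 ± 0.12), and TIMM29 (0.00 ± 0.10) did not pass. AGK, a TIM22 subunit, rose (0.31 ± 0.08, edgeR adjusted p = 0.0122), but not without FB23-2 replicate 2 (0.0824) or control replicate 2 (0.103).

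Among 20 transporters of the mitochondrial membranes outside the family, 5 were higher, a share near the 21.8% of all tested genes and the 27.5% of protein-coding ones. A further 9 were lower, beside 20.3% of all tested genes and 23.4% of protein-coding ones, and the median was -0.15. The mitochondrial pyruvate carrier subunits MPC1 (0.84 ± 0.07) and MPC2 (0.50 ± 0.05) and the calcium uniporter pore MCU (0.51 ± 0.07) rose. MPC1 reached 68.5 CPM with FB23-2, against 38.2 CPM in control. MPC2 shares 22.5% of its exon bases with DCAF6 on the opposite strand, which did not pass (-0.08). SFXN2 (-1.27 ± 0.09) and SFXN4 (-0.88 ± 0.10), sideroflexins of the inner membrane, and the outer membrane channel gene VDAC1 (-0.71 ± 0.05) fell. Of SLC25 family proteins with other symbols, MTCH1 rose (0.38 ± 0.04), and UCP2 (0.02 ± 0.05) and the low UCP3 (-0.94 ± 0.39) did not pass. MTCH2 passed as lower (-0.17 ± 0.06, edgeR adjusted p = 0.0394), but not under 6 alternatives (0.101 to 0.237), among them leaving out FB23-2 replicate 2 (0.237) or either control library (0.141 and 0.127).

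**Figure D4:**
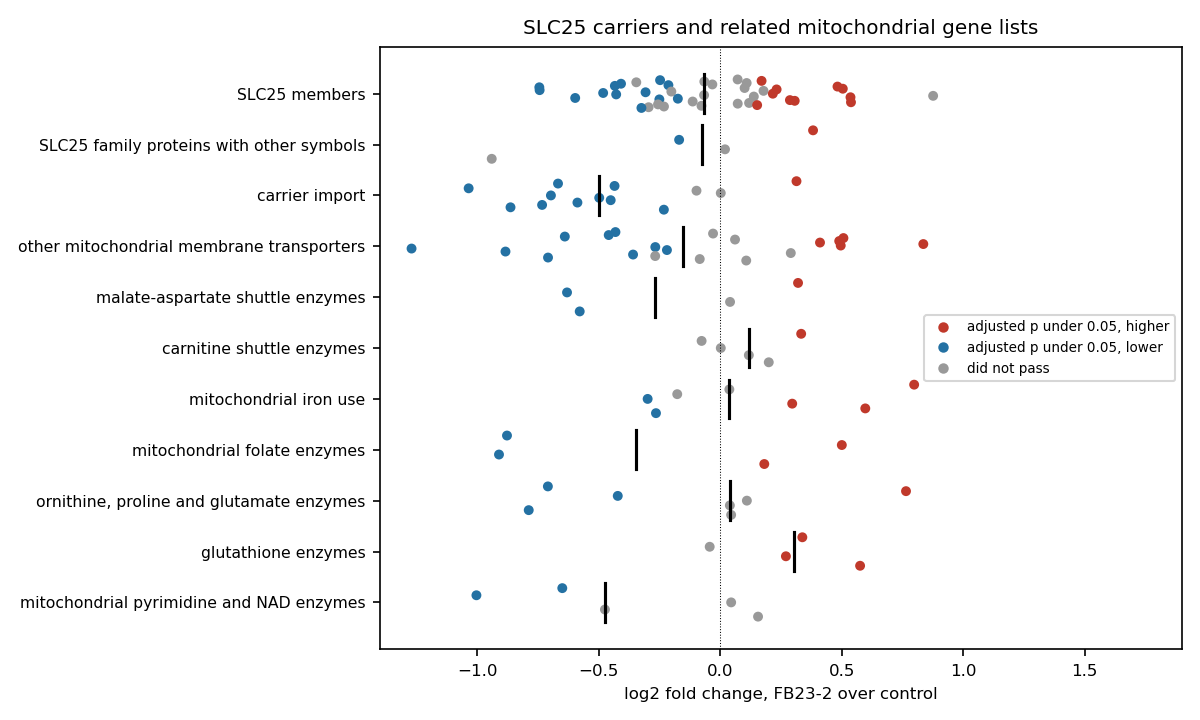
Log2 fold change (FB23-2 over control, x axis) of the tested SLC25 members and of 10 related gene lists, 1 point per gene and a black line at the median. The median is -0.07 for the SLC25 members and -0.50 for carrier import.

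Enzymes on either side of the carriers were read from short lists, whose counts are descriptions beside the same 21.8% of all tested genes higher and 20.3% lower. In the malate-aspartate shuttle, the matrix enzymes GOT2 (-0.63 ± 0.04) and MDH2 (-0.58 ± 0.04) fell, and the cytosolic GOT1 passed as higher (0.32 ± 0.09, edgeR adjusted p = 0.0222), but not without FB23-2 replicate 1 (0.201) or without either control library (0.154 and 0.0621). Of the citrate enzymes, CS fell (-0.35 ± 0.04) and ACLY did not pass. Beside the carnitine carrier, 1 of 5 shuttle and oxidation genes rose, ACADVL (0.33 ± 0.04), while CPT1A (-0.08 ± 0.06) and CPT2 (0.12 ± 0.07) did not pass. Beside the mitoferrins, 3 of 7 genes of mitochondrial iron use were higher and 2 lower, beside 21.8% and 20.3% of all tested genes. ALAS1, which starts haem synthesis (0.80 ± 0.06), and the iron-sulphur scaffold gene ISCU (0.60 ± 0.05) rose. ISCA2 (0.30 ± 0.08) was called higher and NFS1 (-0.27 ± 0.08) and ISCA1 (-0.30 ± 0.08) lower, each lost with some libraries left out: ISCA2 without FB23-2 replicate 1 (0.114) or either control (0.0707 and 0.0751), NFS1 without FB23-2 replicate 2 (0.12) or either control (0.0571 and 0.12), and ISCA1 without FB23-2 replicate 2 (0.0724) or either control (0.0547 and 0.0545).

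Beside the folate carrier, the mitochondrial folate enzyme gene MTHFD2 rose (0.50 ± 0.04), and MTHFD1L (-0.88 ± 0.07) and MTHFD2L (-0.91 ± 0.11) fell. SHMT2 passed as higher (0.18 ± 0.05, edgeR adjusted p = 0.0164), but not without FB23-2 replicate 1 (0.174) or without either control library (0.143 and 0.0864). Of ornithine, proline and glutamate enzymes, the arginase gene ARG2 rose (0.76 ± 0.09), and PYCR1 (-0.79 ± 0.07) and ALDH18A1 (-0.71 ± 0.05), both of proline synthesis, fell. ARG2 shares 37.4% of its exon bases with VTI1B on the opposite strand, and the strand setting is not stated. VTI1B averaged 93.9 CPM with FB23-2 and 97.0 CPM in control. Of 4 glutathione enzymes, the synthesis genes GSS (0.58 ± 0.06) and GCLC (0.34 ± 0.05) rose. The reductase gene GSR was higher (0.27 ± 0.06), but not without FB23-2 replicate 1 (0.0569) or control replicate 2 (0.0643), and GCLM (-0.04 ± 0.06) did not pass. Of mitochondrial pyrimidine and NAD enzymes, DHODH (12.6 and 11.4 CPM with FB23-2, against 23.2 and 25.01 CPM in control) and CMPK2 (-0.65 ± 0.10) fell, and TK2 (0.16 ± 0.08), NADK2 (0.04 ± 0.07) and NMNAT3 (-0.48 ± 0.54) did not pass.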

How the data were processed

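RNA was sequenced from 4 libraries. The values used are whole-number counts per Ensembl gene ID, which the authors deposited as 1 table with no normalization. The submitters' processing notes name HISAT2 2.2.0, StringTie and hg38. For the counting step, annotation release, strand and multiply aligned reads, settings were not given in the sources used here. Gene types, coordinates and exon lengths came from GENCODE release 29 on the same build.

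The filter filterByExpr (edgeR 4.0.16, R 4.3.3, minimum count 10) left 18817 genes. They were scaled by TMM and tested with the quasi-likelihood test (glmQLFit, robust), with Benjamini-Hochberg adjustment over all tested genes and a threshold of 0.05. The SE is the absolute log2 fold change over the square root of F. CPM per kb divides CPM by the union of exon bases, so it understates genes with long unused exons. The floor of 3 counts covers counting error only.

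The members, substrate classes, related lists and the rule for named genes were chosen with earlier results of these data known. A few genes of these lists are counted but not reported here. The rule for naming gives values in each library to members called at a log2 fold change of at least 0.5 in size and to the member highest per kb in each class, and names up to 3 called genes per direction in each related list. Other genes named beside these, with values that did not pass, and genes overlapping a member were added after their values were seen. On simulated counts for 18817 genes with 200 changed, the share recovered was 96% for 4-fold and 81.6% for 2-fold changes. It was 40.4% for 1.5-fold and 2.08% for 1.25-fold changes, and 4 unchanged genes were called. In the data 7919 genes were called, so these shares do not carry over to the main test. DESeq2 1.42.0, other scalings and filters, a replicate block, a test against 1.5-fold and leaving out each library were the alternatives.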

Additional observations from a re-analysis of the deposited data

How the results depend on the processing

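Against a fold of 1.5 (glmTreat), 0 SLC25 members were called higher and 0 lower, and over all genes 434 were higher and 678 lower, against 4099 and 3820 in the main test. Leaving out 1 library at a time gave 5 to 7 SLC25 members called higher, against 10, and 8 to 12 called lower, against 13. The other scalings, filters and DESeq2 gave 8 to 10 higher and 10 to 14 lower. No called member changed sign under any of these alternatives. The median log2 fold change of the members was -0.11 to -0.02. The fit with the replicate number as a block gave 10 members higher and 13 lower, as without it. The labels give same-numbered libraries only a number in common, and their deviations correlated at 0.0652 over 11805 genes. That value does not settle whether they were paired. With 2 libraries per group, simulation recovered 40.4% of genes changed 1.5-fold, a size that few carriers reached, and 2.08% of those changed by the smallest fold simulated, so a member that did not pass is not shown to be unchanged.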
